A study of Homo sapiens with 8 samples.

Results

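JAK-STAT signalling carries cytokine and interferon signals from the cell surface to the nucleus, and 9 of its genes are described here across 8 RNA-seq libraries of SUDHL-4 cells. They are the transcription factor genes STAT2, STAT3, STAT5A and STAT6, the kinase genes JAK1 and JAK2, and the inhibitor genes SOCS1, SOCS3 and USP18. They were chosen by symbol from the 15597 protein-coding genes in the files. SUDHL-4 is a cell line from a diffuse large B-cell lymphoma (DLBCL) of germinal-centre type. The 4 groups were cells overexpressing FDX1 (FDX1-OE) with 5 nM elesclomol (ES), FDX1-OE cells with DMSO, control cells of wild-type genotype with ES, and control cells with DMSO, all for 48 h and with 2 libraries per group. FDX1 encodes a mitochondrial iron-sulfur protein, ferredoxin 1, and ES is a compound that carries copper into cells. The promoter of the FDX1 construct, what the control cells carry and whether the FDX1-OE cells are 1 clone are not stated in the labels.

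A cytokine receptor of this pathway has no kinase of its own and works through JAKs bound to its inner side. When a ligand joins the receptor chains, the JAKs phosphorylate them and then phosphorylate STATs, which pair up and enter the nucleus to switch on target genes. STAT2 acts with IRF9 in the complex that type I and type III interferons activate, while STAT3, STAT5A and STAT6 serve mainly the IL-6 and IL-10, the IL-2 and the IL-4 receptor families. SOCS1 and SOCS3 are targets of the pathway whose proteins block JAKs, and USP18 removes the ubiquitin-like protein ISG15 and restrains signalling from the type I interferon receptor. In B cells these routes pass on interferon, IL-4, IL-10 and IL-21 signals.

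SOCS1 and STAT2 were the members that ES raised most, and their promoters are shown because they can be read for the sequences that STAT complexes are known to bind. Each is the stretch of 250 bases before the start of the gene in RefSeq, on the gene's own strand, in build GRCh38.p14. Matches to the core of the interferon-stimulated response element, the letters GAAA, NN and GAAA in a row on either strand, are in capitals.
SOCS1, chr16:11256205-11256454, minus strand: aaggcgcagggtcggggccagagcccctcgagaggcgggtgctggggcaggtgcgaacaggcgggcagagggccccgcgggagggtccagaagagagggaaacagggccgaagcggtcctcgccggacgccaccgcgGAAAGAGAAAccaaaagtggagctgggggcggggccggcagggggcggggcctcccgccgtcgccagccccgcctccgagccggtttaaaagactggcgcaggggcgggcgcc
STAT2, chr12:56360108-56360357, minus strand: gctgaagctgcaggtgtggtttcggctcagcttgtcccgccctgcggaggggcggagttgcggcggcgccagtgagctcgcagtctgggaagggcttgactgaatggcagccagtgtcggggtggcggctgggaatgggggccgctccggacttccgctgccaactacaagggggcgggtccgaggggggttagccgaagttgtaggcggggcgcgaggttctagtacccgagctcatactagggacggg
The SOCS1 promoter held 1 match, GAAAGAGAAA, whose first base lies 113 bases before the start, and the STAT2 promoter held none. RefSeq promoters were found for 8 of the 9 genes, all but USP18, at 16 start sites. Of these 16 promoters, 1 held a match to this core, that of SOCS1. Among all 34788 RefSeq promoters of this length, 3.02% held one. The core of the gamma-activated site, TTCNNNGAA, was in 6.57% of all promoters and in the promoters of 0 of the 8 genes. The 2 motifs cannot overlap by more than the letters GAA or TTC at their ends. A match is a string of letters and not a measured binding site, and no match says only that these letters are not in this window.

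Values are FPKM, reads divided by gene length and library size, as the authors deposited them. The library totals behind these values, recovered from the steps of the FPKM, were between 33435438 and 35883528 reads. Of each total, 99.9% lay in the listed genes. FDX1 averaged 83.7 FPKM in FDX1-OE cells with ES, 71.1 in FDX1-OE cells with DMSO, 21.3 in control cells with ES and 23.9 in control cells with DMSO. Of the B-cell markers, all 6 of 6 were above 0 in every group and summed to between 1341 and 1708 FPKM over the libraries. The 9805 genes that reached 1 FPKM in 2 or more libraries were tested with limma on log2(FPKM + 1), and a gene was called at a Benjamini-Hochberg adjusted p below 0.05. Log2 changes are therefore on the log2(FPKM + 1) scale, which understates the change of low genes, and each stands with its standard error (SE). Whether the 2 libraries of a group came from separate cultures is not stated, so p-values reflect library-to-library spread, which may be technical.

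Before any comparison, the genes lay at very different levels. STAT6, which passes on IL-4 and IL-13 signals, had the highest mean FPKM of the 9 genes in each of the 4 groups. STAT2 and SOCS1 came next, and their libraries overlapped in FDX1-OE cells with DMSO and in control cells with ES, so their order was not resolved there. STAT2 was above SOCS1 in FDX1-OE cells with ES, and SOCS1 was above STAT2 in control cells with DMSO. JAK1, STAT3, JAK2, STAT5A, USP18 and SOCS3 followed in this order in all 4 groups, with no overlap between neighbours down to USP18. USP18 and SOCS3 overlapped in both control groups and had 1 and 1 reads each in FDX1-OE cells with DMSO, so their order was resolved in FDX1-OE cells with ES alone. Of the 9 genes, 7 passed the filter on low values, 6 of them with at least 1 FPKM in every library. STAT5A reached 1 FPKM in 5 libraries and so passed through the groups where it was high. USP18 and SOCS3 did not pass.

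**Figure D1:**
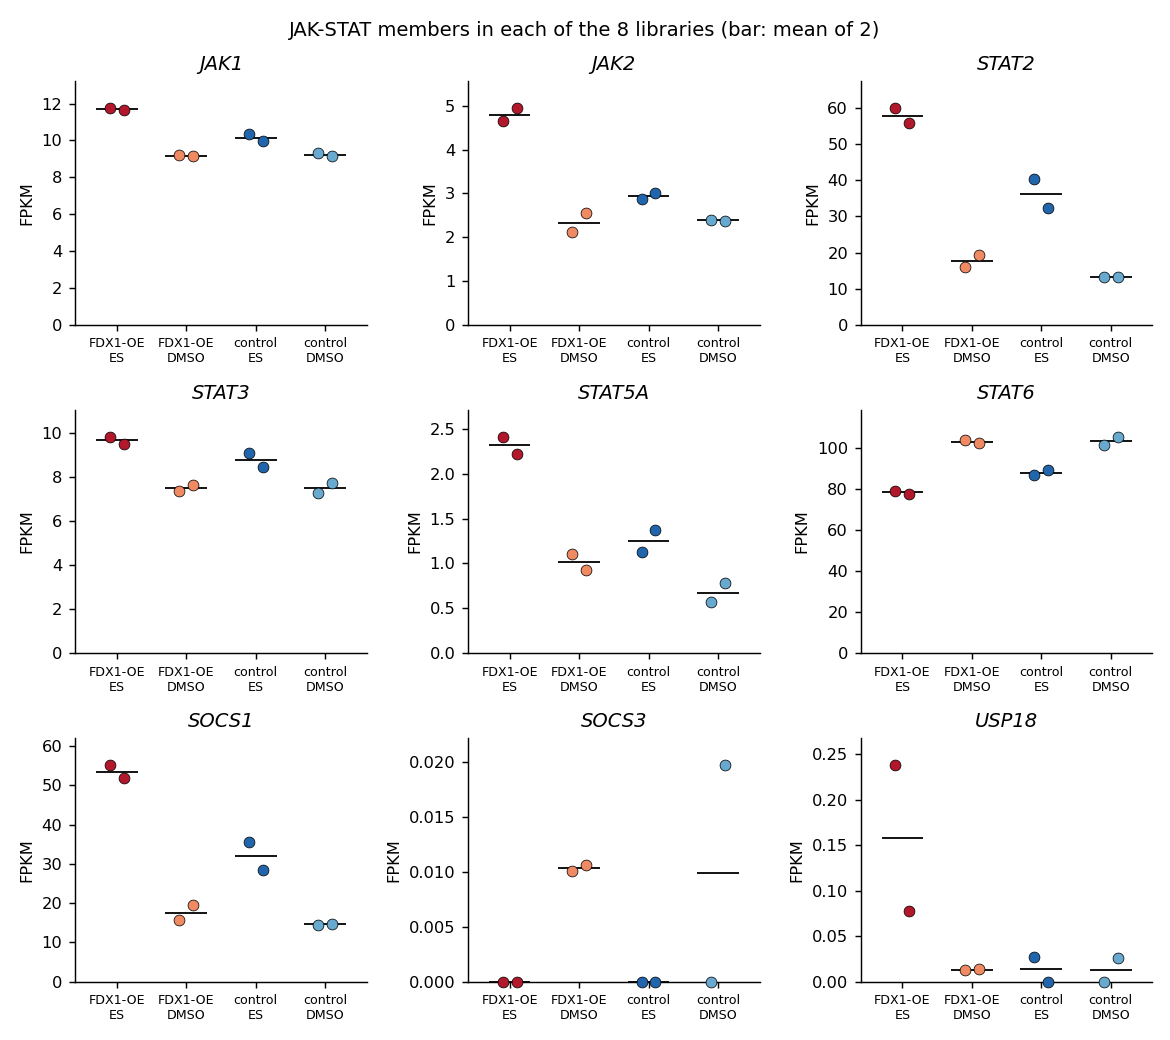
FPKM of each of the 9 genes in every library, with 1 panel per gene and its own linear axis starting at 0, points for the libraries and a bar for the mean of each group (n = 2). JAK1, JAK2, STAT2, STAT3, STAT5A, SOCS1 and USP18 each have their own highest libraries in FDX1-OE cells with ES. STAT6 has its own lowest libraries in that group, and SOCS3 stays at or below 0.0197 FPKM.

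ES raised 4 of the 7 tested members in control cells and 6 of the 7 in FDX1-OE cells, and it lowered STAT6 in both. The raised members include STAT5A, which passed the filter through the groups where it was high, so the filter favoured its being counted. STAT2 and SOCS1 had the largest ratios in both genotypes. In FDX1-OE cells the called members were 7 of 7, where 56.2% of all tested genes were called, 37% as higher and 19.2% as lower. In control cells they were 5 of 7, where 38.4% of all genes were called, 25.5% as higher and 12.9% as lower. The median log2 change over all tested genes was 0.09 in FDX1-OE cells and 0.06 in control cells. With median-of-ratios scaling the split over all genes was 2702 higher and 2710 lower in FDX1-OE cells, against 3632 and 1878 as deposited. In control cells it was 1856 higher and 1888 lower, against 2498 and 1269 as deposited.

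JAK1, a kinase of the interferon, IL-2, IL-4 and IL-6 families of receptors, had 11.7 and 11.6 FPKM in FDX1-OE cells with ES, against 9.20 and 9.13 in FDX1-OE cells with DMSO. Control cells had 10.4 and 9.95 FPKM with ES, against 9.29 and 9.16 with DMSO. The ES libraries were above the DMSO libraries in both genotypes. The log2 change was 0.32 (SE 0.06, adjusted p = 0.00117) in FDX1-OE cells. In control cells it was 0.13 (SE 0.06, adjusted p = 0.125), with a 95% interval of -0.01 to 0.26, and was not called.

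JAK2, a kinase of the interferon gamma receptor and of several haematopoietic cytokine receptors, had 4.65 and 4.95 FPKM in FDX1-OE cells with ES, against 2.11 and 2.56 in FDX1-OE cells with DMSO. In control cells the values were 2.87 and 3.01 FPKM with ES, against 2.39 and 2.38 with DMSO. The ES libraries were above the DMSO libraries in both genotypes, by a wider margin in FDX1-OE cells. Its mean with ES was 2.06 times that with DMSO in FDX1-OE cells and 1.23 times in control cells. The log2 change was 0.80 (SE 0.09, adjusted p = 2.93e-05) in FDX1-OE cells and 0.22 (SE 0.09, adjusted p = 0.0663) in control cells, where it was not called.

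STAT2, the STAT of the interferon complex, had 60.0 and 55.9 FPKM in FDX1-OE cells with ES, against 16.1 and 19.4 in FDX1-OE cells with DMSO. In control cells it had 40.5 and 32.2 FPKM with ES, against 13.1 and 13.1 with DMSO. All ES libraries were above all DMSO libraries of either genotype. The mean ratio was 3.26 in FDX1-OE cells (log2 change 1.66, SE 0.10, adjusted p = 1.18e-06) and 2.77 in control cells (log2 change 1.40, SE 0.10, adjusted p = 1.04e-05).

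STAT3, which serves the IL-6, IL-10 and IL-21 receptors, had 9.82 and 9.47 FPKM in FDX1-OE cells with ES, against 7.37 and 7.62 in FDX1-OE cells with DMSO. Control cells had 9.08 and 8.45 FPKM with ES, against 7.28 and 7.73 with DMSO. The groups did not overlap in either genotype. Its mean with ES was 1.29 times that with DMSO in FDX1-OE cells (log2 change 0.33, SE 0.07, adjusted p = 0.00213). In control cells the ratio was 1.17 (log2 change 0.20, SE 0.07, adjusted p = 0.0394), a call that depends on the processing. It was kept in 5 of 15 alternatives, with adjusted p between 0.0372 and 0.196. It was lost with median-of-ratios scaling (adjusted p = 0.129), with limma-voom on recovered reads (adjusted p = 0.125) and, among other settings, without replicate 1 or 2 of control cells with DMSO (0.184 and 0.0615), without replicate 1 or 2 of control cells with ES (0.196 and 0.0507) and without replicate 1 or 2 of FDX1-OE cells with DMSO (0.0537 and 0.0538).

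STAT5A, which serves the IL-2 family of receptors, had 2.41 and 2.21 FPKM in FDX1-OE cells with ES, against 1.11 and 0.932 in FDX1-OE cells with DMSO. The control cells had 1.12 and 1.37 FPKM with ES, against 0.569 and 0.784 with DMSO. Groups did not overlap within a genotype, and the control cells with ES lay close to the FDX1-OE cells with DMSO. Its mean with ES was 2.27 times that with DMSO in FDX1-OE cells and 1.84 times in control cells. The log2 change was 0.71 (SE 0.10, adjusted p = 0.000212) in FDX1-OE cells and 0.42 (SE 0.10, adjusted p = 0.00919) in control cells. The control call was lost without replicate 1 of control cells with DMSO (log2 change 0.33, adjusted p = 0.0746) and without replicate 2 of control cells with ES (log2 change 0.34, adjusted p = 0.0598). Of the 50-base stretches of the STAT5A transcript in GENCODE, 11.9% also occur in STAT5B, so its values are uncertain to the extent that such reads were shared or dropped. STAT5B itself was not called in either genotype, with log2 changes of 0.02 (adjusted p = 0.807) in FDX1-OE cells and 0.00 (adjusted p = 1) in control cells.

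STAT6 was the member that fell. It had 79.1 and 77.7 FPKM in FDX1-OE cells with ES, against 103.8 and 102.5 in FDX1-OE cells with DMSO. Levels in control cells were 87.0 and 89.1 FPKM with ES, against 101.3 and 105.6 with DMSO. All ES libraries were below all DMSO libraries. Its mean with ES was 0.760 times that with DMSO in FDX1-OE cells (log2 change -0.39, SE 0.05, adjusted p = 7.27e-05) and 0.851 times in control cells (log2 change -0.23, SE 0.05, adjusted p = 0.00409).

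SOCS1 had 55.2 and 51.8 FPKM in FDX1-OE cells with ES, against 15.7 and 19.5 in FDX1-OE cells with DMSO. Control cells had 35.6 and 28.4 FPKM with ES, against 14.5 and 14.8 with DMSO. As for STAT2, every ES library was above every DMSO library. The mean ratio was 3.04 in FDX1-OE cells (log2 change 1.56, SE 0.11, adjusted p = 2.19e-06) and 2.18 in control cells (log2 change 1.07, SE 0.11, adjusted p = 8.14e-05).

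SOCS3 and USP18, the other inhibitors, were near 0. SOCS3, which binds the gp130 receptor chain and blocks JAKs there, had 0 and 0 reads in FDX1-OE cells with ES, 1 and 1 in FDX1-OE cells with DMSO, 0 and 0 in control cells with ES and 0 and 2 in control cells with DMSO. Every library lay below 3 reads, the limit that a count of 0 allows, so no ratio is given. USP18 had 18 and 6 reads in FDX1-OE cells with ES, 1 and 1 in FDX1-OE cells with DMSO, 2 and 0 in control cells with ES and 0 and 2 in control cells with DMSO. The libraries of FDX1-OE cells with ES thus stood above the rest, at 0.238 and 0.0783 FPKM. Per library total, the 24 reads there were 11.8 times the 2 reads of FDX1-OE cells with DMSO (95% interval 2.92 to 103) and 11.6 times the 2 reads of control cells with ES (95% interval 2.87 to 101), where the intervals cover counting error only. Without the filter, limma gave an adjusted p of 0.0598 for the first difference and 0.114 for the second, and neither was called. Of the 50-base stretches of the USP18 transcript, 23.4% also occur in other genes, chiefly USP41, so its reads are uncertain.

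**Figure D2:**
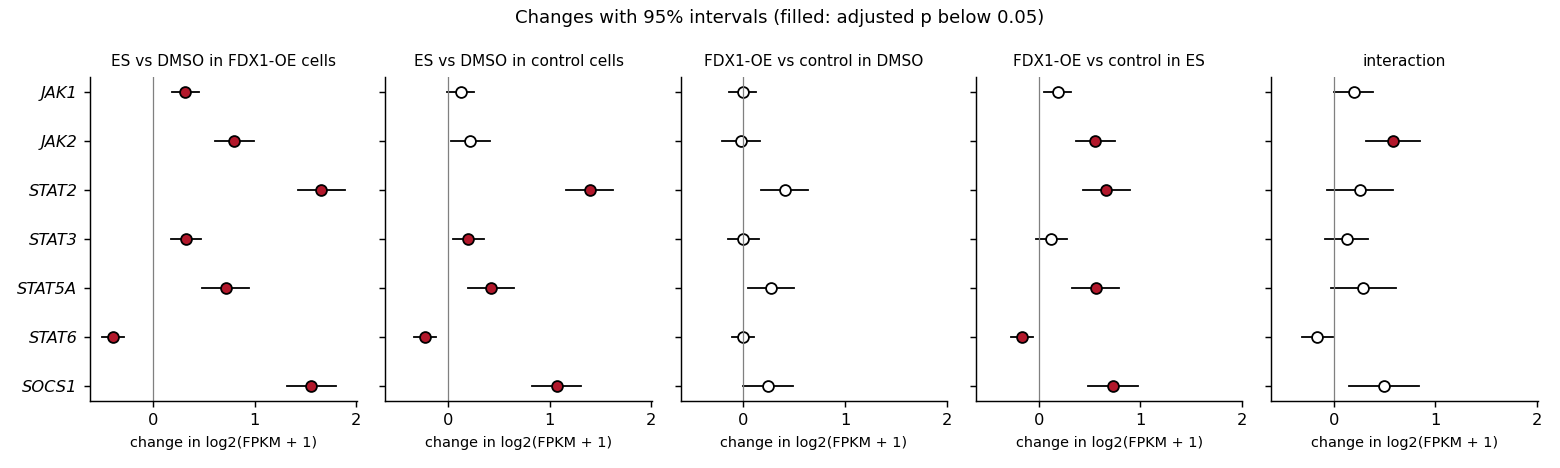
Log2 change on the log2(FPKM + 1) scale of the 7 tested genes in the 4 comparisons and in the difference of the ES responses, with points for the estimates (filled where the adjusted p was below 0.05), bars for 95% intervals, a vertical line at 0 and the difference in the panel named interaction. STAT2 and SOCS1 lie farthest right under ES, STAT6 lies left of 0, and JAK2 separates the genotypes at 0.58.

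Between the genotypes, no tested member was called in DMSO and 5 of 7 were called in ES. These comparisons share the FDX1-OE and control libraries with those of ES against DMSO. In DMSO, limma called 0 of 7 members, where 0.51% of all tested genes were called, 0.428% as higher and 0.0816% as lower, while 2 members had an unadjusted p below 0.05 and limma-voom on recovered reads called 1. That gene was STAT2, whose mean was 1.36 times as high in FDX1-OE as in control cells (log2 change 0.41, SE 0.10, adjusted p = 0.194, and 0.0438 with voom). The other was STAT5A, at 1.51 times (log2 change 0.27, SE 0.10, adjusted p = 0.562). SOCS1 was at 1.20 times (log2 change 0.24, SE 0.11, adjusted p = 0.697). For STAT3, STAT6, JAK1 and JAK2 the libraries of the genotypes overlapped in DMSO, with mean ratios between 0.979 and 0.999. The widest 95% interval among these 4 was that of JAK2, at -0.21 to 0.17 on the log2 scale.

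In ES, STAT2, STAT5A, JAK2 and SOCS1 were higher in FDX1-OE than in control cells and STAT6 was lower, where 21.4% of all tested genes were called, 13.6% as higher and 7.78% as lower. STAT5A had the largest ratio of means, 1.86 (log2 change 0.56, SE 0.10, adjusted p = 0.00465). SOCS1 followed at 1.67 (log2 change 0.73, SE 0.11, adjusted p = 0.00169), JAK2 at 1.63 (log2 change 0.56, SE 0.09, adjusted p = 0.00192) and STAT2 at 1.59 (log2 change 0.67, SE 0.10, adjusted p = 0.00213). STAT6 was at 0.890 (log2 change -0.17, SE 0.05, adjusted p = 0.034). STAT3 was at 1.10 (log2 change 0.12, SE 0.07, adjusted p = 0.217), and JAK1 was at 1.15 (log2 change 0.19, SE 0.06, adjusted p = 0.0504). With no filter JAK1 was called (adjusted p = 0.0385). The STAT6 call was kept in 8 of 15 alternatives. It was lost with only the libraries compared in the fit (adjusted p = 0.0802), without replicate 1 or 2 of FDX1-OE cells with ES (0.096 and 0.123), without replicate 1 or 2 of control cells with ES (0.0617 and 0.167) and without replicate 1 or 2 of FDX1-OE cells with DMSO (0.0577 and 0.058).

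The ES responses of the genotypes were then compared directly, as the log2 change in FDX1-OE cells minus that in control cells. JAK2 was the 1 member of 7 called, where 4.3% of all tested genes were called, 3.25% as higher and 1.05% as lower. Its responses differed by 0.58 (SE 0.12, 95% interval 0.31 to 0.85, adjusted p = 0.0292). The call was kept in 7 of 14 alternatives, with adjusted p between 0.0111 and 0.087, while the difference stayed between 0.49 and 0.72. It was lost without replicate 1 or 2 of FDX1-OE cells with ES (adjusted p = 0.0809 and 0.0828), without replicate 1 of FDX1-OE cells with DMSO (0.0853), without replicate 2 of control cells with ES (0.0807), without replicate 1 or 2 of control cells with DMSO (0.0835 and 0.0745) and without the filter (0.087). Below the threshold were SOCS1 at 0.49 (SE 0.16, adjusted p = 0.0967), STAT5A at 0.29 (adjusted p = 0.268), STAT2 at 0.26 (adjusted p = 0.324), JAK1 at 0.20 (adjusted p = 0.214), STAT3 at 0.13 (adjusted p = 0.474) and STAT6 at -0.16 (adjusted p = 0.196). SOCS1 was called without replicate 1 of control cells with ES (0.65, adjusted p = 0.0282). For STAT2 the 95% interval was -0.07 to 0.59.

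The rest of the pathway is given by lists of genes, described by counts over the tested genes of each list. Upstream of the members, 3 of 17 ligand genes were tested, and all 3 were called higher under ES in both genotypes. Of all tested genes, 37% were called as higher in FDX1-OE cells and 25.5% in control cells. IFNB1 and IFNL1 reached 1 FPKM in ES libraries only and so passed the filter through the groups where they were high, which leaves EBI3 as the 1 ligand tested on other grounds. IFNB1, the gene of interferon beta, averaged 5.90 FPKM in FDX1-OE cells with ES, against 0.761 in FDX1-OE cells with DMSO, and 1.27 in control cells with ES, against 0.0836 in control cells with DMSO. Its log2 change was 1.97 (adjusted p = 2.64e-07) in FDX1-OE cells and 1.07 (adjusted p = 3.6e-05) in control cells. The ratio of means ran the other way, at 7.76 in FDX1-OE cells and 15.2 in control cells, the last against 5 reads in control cells with DMSO, so no order of the 2 responses is given. It was also higher in FDX1-OE than in control cells in DMSO (log2 change 0.70, adjusted p = 0.00928). EBI3, a subunit of IL-27 and IL-35, averaged 41.1 FPKM in FDX1-OE cells with ES, against 2.07 in FDX1-OE cells with DMSO, and 13.7 in control cells with ES, against 1.51 in control cells with DMSO. IFNL1, the gene of a type III interferon, had log2 changes of 2.09 (adjusted p = 4.66e-05) in FDX1-OE cells and 1.29 (adjusted p = 0.00218) in control cells. Its ratio of means also ran the other way, at 8.90 in FDX1-OE cells and 14.9 in control cells. The last was against 7 reads in control cells with DMSO, and control cells with ES had 0.951 and 2.89 FPKM. In limma the 2 responses of IFNL1 did not differ at the threshold (adjusted p = 0.199), so no order is given. IFNA1, IL2, IL4, IL7, IL10, IL21 and IL27 were not analysed here.

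Among 17 tested receptor genes, ES raised 7 and lowered 3 in FDX1-OE cells, and it raised 6 and lowered 2 in control cells, where 56.2% of all genes were called in FDX1-OE cells and 38.4% in control cells. IL2RA and IL6ST passed the filter through ES libraries alone. The median log2 change of the 17 was 0.06 in FDX1-OE cells and -0.02 in control cells, beside 0.09 and 0.06 over all tested genes. IL2RA, the alpha chain of the IL-2 receptor, averaged 3.87 FPKM in FDX1-OE cells with ES, against 0.190 in FDX1-OE cells with DMSO, and 1.27 in control cells with ES, against 0.0623 in control cells with DMSO. IL10RA, the ligand-binding chain of the IL-10 receptor, averaged 8.67 FPKM in FDX1-OE cells with ES, against 2.47 in FDX1-OE cells with DMSO, and 5.21 in control cells with ES, against 2.93 in control cells with DMSO. The ES responses of the genotypes differed for IL10RA by 0.82 (adjusted p = 0.0119) and for IL21R by 0.63 (adjusted p = 0.0145). For IL2RA the difference of 0.93 (adjusted p = 0.0226) holds on the log2(FPKM + 1) scale only, since its ratio of means was 20.4 in FDX1-OE cells and 20.3 in control cells. In ES, 6 of the 17 were higher and 1 was lower in FDX1-OE than in control cells. There 13.6% of all tested genes were called as higher and 7.78% as lower.

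Of the other kinases of the family, ES raised TYK2 and JAK3 in both genotypes. Over all tested genes, the share called as higher was 37% in FDX1-OE cells and 25.5% in control cells. TYK2, the partner of JAK1 at the type I interferon receptor, averaged 59.5 FPKM in FDX1-OE cells with ES, against 41.5 in FDX1-OE cells with DMSO, and 52.0 in control cells with ES, against 41.8 in control cells with DMSO. Its log2 change was 0.51 (SE 0.07, adjusted p = 0.000136) in FDX1-OE cells and 0.31 (SE 0.07, adjusted p = 0.00596) in control cells. JAK3, the kinase bound to the common gamma chain, averaged 1.73 FPKM in FDX1-OE cells with ES, against 1.03 in FDX1-OE cells with DMSO, and 2.12 in control cells with ES, against 1.29 in control cells with DMSO. Its log2 change was 0.43 (SE 0.10, adjusted p = 0.00321) in FDX1-OE cells and 0.45 (SE 0.10, adjusted p = 0.00475) in control cells. As ratios of means, JAK3 was at 1.68 in FDX1-OE cells and 1.64 in control cells, against 1.43 and 1.24 for TYK2.

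Among 15 other inhibitor and phosphatase genes, ES raised 6 and lowered 3 in FDX1-OE cells and raised 2 and lowered 3 in control cells, beside the same 56.2% and 38.4% of all genes, with a median log2 change of 0.00 in FDX1-OE cells and 0.03 in control cells. ISG15, which stabilises USP18 in human cells, averaged 1325 FPKM in FDX1-OE cells with ES, against 507.3 in FDX1-OE cells with DMSO, and 781.1 in control cells with ES, against 286.4 in control cells with DMSO. PTPN6, which encodes the phosphatase SHP-1, was lower in FDX1-OE than in control cells. It averaged 2.98 FPKM in FDX1-OE cells with ES and 5.96 in control cells with ES (log2 change -0.81, adjusted p = 0.000236), and it averaged 4.48 in FDX1-OE cells with DMSO and 7.05 in control cells with DMSO (log2 change -0.56, adjusted p = 0.0163). SOCS6 was not analysed here.

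**Figure D3:**
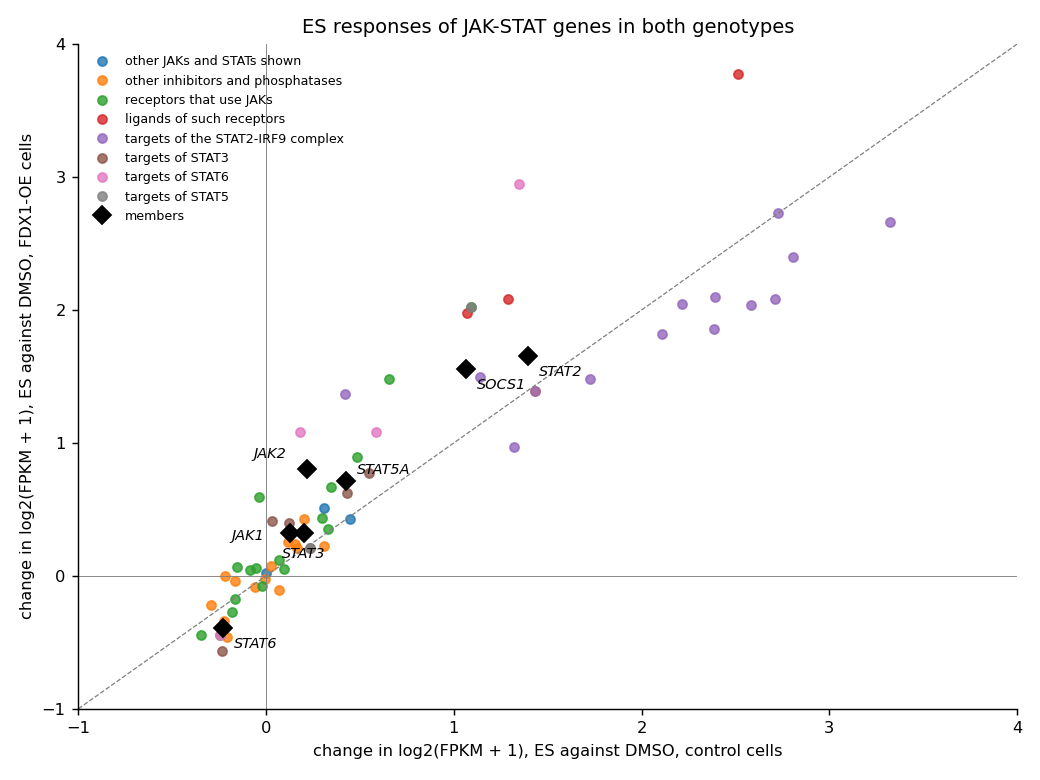
Log2 change under ES on the log2(FPKM + 1) scale in FDX1-OE cells (vertical axis) against that in control cells (horizontal axis), with a coloured point for each gene shown of the pathway lists, a black diamond for each of the 7 tested members and a dashed line where both are equal. All 14 tested targets of the STAT2-IRF9 complex lie above 0 in both genotypes, JAK2 lies at 0.80 against 0.22, and receptors and inhibitors lie on both sides of 0.

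Downstream, 14 of 15 targets of the STAT2-IRF9 complex were tested and ES raised all 14 in both genotypes, with a median log2 change of 1.95 in FDX1-OE cells and 2.30 in control cells. Of all tested genes, 37% were called as higher in FDX1-OE cells and 25.5% in control cells, with medians of 0.09 and 0.06. XAF1, a pro-apoptotic interferon target, averaged 17.2 FPKM in FDX1-OE cells with ES, against 1.79 in FDX1-OE cells with DMSO, and 9.07 in control cells with ES, against 0.517 in control cells with DMSO. IFIT1, which binds viral RNA, was higher in FDX1-OE than in control cells in DMSO (log2 change 1.77, adjusted p = 0.000227) and in ES (log2 change 1.24, adjusted p = 0.000262). In DMSO 11 of the 14 were higher in FDX1-OE cells, where 0.428% of all tested genes were called as higher. In ES 12 were, where 13.6% of all tested genes were called as higher. The 1 target not tested was MX1, which averaged 0.0220 FPKM in FDX1-OE cells with ES, 0.0452 in FDX1-OE cells with DMSO, 0.00252 in control cells with ES and 0.0701 in control cells with DMSO. OAS3, an interferon-induced enzyme gene, passed the filter through FDX1-OE cells with ES alone. The other 13 reached 1 FPKM in DMSO libraries as well. On the log2(FPKM + 1) scale the ES responses differed for OAS3 (0.95, adjusted p = 0.0175), while its ratio of means was 11.6 in FDX1-OE cells and 8.26 in control cells.

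The tested targets of STAT3 and those of STAT6 moved in both directions. Among 6 tested targets of STAT3, ES raised 4 and lowered 1 in FDX1-OE cells and raised 2 and lowered 1 in control cells, with medians of 0.40 and 0.18. Of all tested genes, 56.2% were called in FDX1-OE cells and 38.4% in control cells, with medians of 0.09 and 0.06. Beside these shares, the counts in such short lists are not read as particular to the targets. BCL2L1, the gene of the survival protein BCL-XL, rose (log2 change 0.77, adjusted p = 1.05e-05, in FDX1-OE cells and 0.55, adjusted p = 0.000286, in control cells), while MYC, which drives growth, fell (log2 change -0.57, adjusted p = 9.98e-05, in FDX1-OE cells and -0.24, adjusted p = 0.0265, in control cells). Among 4 tested targets of STAT6, ES raised 3 and lowered 1 in FDX1-OE cells and raised 2 and lowered 1 in control cells. FCER2 and CCL22 reached 1 FPKM in ES libraries only, so the filter favoured their being counted as raised. CCL22, a chemokine gene, averaged 7.41 FPKM in FDX1-OE cells with ES, against 0.0864 in FDX1-OE cells with DMSO, and 2.02 in control cells with ES, against 0.184 in control cells with DMSO, while IL4R, which encodes the IL-4 receptor alpha chain, fell (log2 change -0.45, adjusted p = 0.000233, in FDX1-OE cells and -0.25, adjusted p = 0.0141, in control cells). Of the targets of STAT5, 2 were tested and IL2RA was called, which, as above, passed the filter through ES libraries alone.

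The genes whose log2(FPKM + 1) followed each member most closely over the 8 libraries had Pearson r between 0.991 and 0.999, over libraries that form 4 groups of 2. For STAT2 they were PARP10 (0.999), KANSL3 (0.998) and PML (0.997), and for SOCS1 they were TMEM140 (0.998), NLRC5 (0.998) and PCNX4 (0.997). For STAT6 they were SNRNP70 and PCBP1 among the first 3, for JAK1 HLA-E, KDM4A and ZCCHC24, for JAK2 REV3L, CCPG1 and CEACAM1, for STAT3 P2RX4, MAN2C1 and RUNX3, and for STAT5A TP63 and AFF2 among the first 3. Such likeness was common, with between 161 and 845 genes at r of at least 0.95 per member.

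Some genes listed as markers of other cell types moved with ES as well. Of 10 myeloid markers, 6 were in the files, and they summed to between 36.7 and 39.7 FPKM in FDX1-OE cells with ES, 7.07 and 8.18 in FDX1-OE cells with DMSO, 12.3 and 16.5 in control cells with ES and 4.03 and 4.30 in control cells with DMSO. CD68 and FCER1G were the 2 that passed the filter and made up nearly all of these sums, while LYZ was at 0 in control cells with DMSO. T and NK cell markers, 5 of 8 in the files, summed to between 7.60 and 8.48 FPKM in FDX1-OE cells with ES, 5.23 and 7.19 in FDX1-OE cells with DMSO, 7.09 and 7.41 in control cells with ES and 4.10 and 5.03 in control cells with DMSO, and CD3G was at 0 in FDX1-OE cells with ES. CD3D and CD3G were at 0 in both groups of control cells and KLRD1 was at 0 in FDX1-OE cells with DMSO. CD3E made up nearly all of the T and NK cell sums and was the 1 marker of this list that passed the filter. In limma its log2 change under ES was 0.35 (adjusted p = 0.0346) in FDX1-OE cells. For control cells it was 0.60 (adjusted p = 0.00417). Epithelial and stromal markers, 8 of 8 in the files, summed to between 11.7 and 13.0 FPKM in FDX1-OE cells with ES, 13.3 and 15.8 in FDX1-OE cells with DMSO, 9.93 and 10.8 in control cells with ES and 12.4 and 14.2 in control cells with DMSO, with EPCAM, KRT18 and COL1A2 at 0 in the last 3 of these groups. DCN made up most of the epithelial and stromal sums. It averaged 10.5 FPKM in FDX1-OE cells with ES, 14.2 in FDX1-OE cells with DMSO, 9.55 in control cells with ES and 12.9 in control cells with DMSO. The part of all these markers in the members' changes was not tested. In bulk RNA, fewer cells of a type and less RNA per cell cannot be told apart.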

How the data were processed

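Each of 8 libraries has 1 table of FPKM for 15597 protein-coding genes, as deposited by the authors. No header states the unit, which was read from the values. The submitters' processing notes name HISAT2, HTSeq, R 3.2.0 and hg19, with roles and annotation not given in the sources used here. FPKM steps came to whole reads for 100% of genes within 0.02 read. The recovered reads served for depth, a limit of 3 reads and the voom alternative. Two-sided tests were made with limma 3.58.1 (R 4.3.3) on log2(FPKM + 1), with the 4 group means fitted to all libraries (4 residual degrees of freedom), a trended empirical Bayes prior and adjustment over 9805 genes. Scripts were tested on simulated data. An exact permutation test of 2 against 2 libraries has a smallest p of 0.333. Motifs came from RefSeq promoters and shared transcript stretches of 50 bases from GENCODE, both on a later build than the files. All 9 members were named, with up to 3 genes per list and comparison by smallest adjusted p. STAT5B and MX1 were named after their values were seen. Members and lists were chosen with earlier results of these data known. Alternatives changed the pseudocount, filter, scaling, test, libraries in the fit and replicate block. Some genes of the pathway are not reported here.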

Additional observations from a re-analysis of the deposited data

Results flagged for a closer look

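JAK2 stood out because its ES response differed between the genotypes by 0.58 on the log2(FPKM + 1) scale (SE 0.12, limma adjusted p = 0.0292). The response was 0.80 in FDX1-OE cells and 0.22 in control cells, and in DMSO the genotypes differed by -0.02 (adjusted p = 0.989). The call was kept in 7 of 14 alternatives.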

How the results depend on the processing

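Of 514 recomputed log2 changes of single members, 485 kept their side of the threshold, 26 lost a call and 3 gained one. A turn of direction was counted only where the main or the alternative fit called the gene, and there were 0. Uncalled changes near 0 did change sign, such as that of JAK2 for FDX1-OE in DMSO, at between -0.12 and 0.07. The number of members called moved by over 1.5 times as follows. For the difference of ES responses it was 0 without the filter and 0 with a filter at a mean of 5 FPKM, which left JAK2 untested, against 1. For FDX1-OE against control cells in ES it was 3 with that filter, which left JAK2 and STAT5A untested, against 5. For FDX1-OE against control cells in DMSO it was 1 with voom, against 0. Leaving out 1 library at a time gave between 3 and 5 members for ES in control cells, 7 and 7 for ES in FDX1-OE cells, 0 and 0 for FDX1-OE in DMSO, 4 and 5 for FDX1-OE in ES and 0 and 2 for the difference. The lone library left in a group was then assumed to vary like the other groups. With the replicate number as a block the counts were 5, 7, 0, 5 and 1, the same as without it. Deviations of same-numbered libraries correlated at between -0.18 and 0.18, so the numbers were not taken to pair the libraries. With a pseudocount of 0.1 FPKM the log2 change of STAT5A was 1.11 in place of 0.71 for ES in FDX1-OE cells, 0.80 in place of 0.42 for ES in control cells, 0.54 in place of 0.27 for FDX1-OE in DMSO and 0.85 in place of 0.56 for FDX1-OE in ES. With voom the 3 called ones of these were 1.08, 0.82 and 0.86. Depth limits SOCS3, which lay below 3 reads in every library, and USP18, which passed 3 reads in FDX1-OE cells with ES alone.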
